A study of Tachysurus vachellii with 6 samples.

Results

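The 5 genes described here were drawn from 28288 in the deposited table: angptl4, pparg, ppara, ppargc1a and plin2. They were found by gene name, as a set of regulators of fat storage and release with angptl4 and pparg as its anchors. A row named lpl was also looked for, and no row carried that name, so 5 of 28288 rows formed the set. The anchors were picked because earlier results of these libraries showed them apart between the groups. Their levels and changes are therefore given as a description with no test, and the same was done for the other 3 genes.

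The tissue was gill of a hybrid yellow catfish, bred from a Tachysurus fulvidraco female and a Pseudobagrus vachellii male. The hypoxia group was kept in water with 1.5 mg/L of dissolved oxygen for 96 h, and the normoxia group in water with 6.5 mg/L. All fish had been fasted before the trial started, per the labels' protocols. RNA of 9 fish per group was combined in pools of 3, giving 3 hypoxia and 3 normoxia libraries, so all errors and p-values below rest on the variation among pools, not among fish.

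Cells keep surplus fatty acids as triacylglycerol in lipid droplets, which are coated by perilipins such as the plin2 product. In mammals, lipoprotein lipase on the vessel wall frees fatty acids from circulating lipoproteins, and the protein encoded by angptl4 is a secreted inhibitor of that lipase. The nuclear receptors encoded by pparg and ppara bind fatty acids and switch on genes of fat storage and of fatty acid oxidation, and the ppargc1a product is a coactivator that works with them. In mammalian cells angptl4 is a known target of these receptors and of hypoxia-inducible factor.

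Total counts were 44762764 to 54578326 in the hypoxia libraries and 46885400 to 55016223 in the normoxia libraries. The ionocyte and parathyroid regulator gcm2, a gill marker, stood at 64.8 to 85.0 FPKM in hypoxia and 69.0 to 85.5 FPKM in normoxia. Summed FPKM of 17 gill ionocyte markers were 1146 to 1846 in hypoxia and 819 to 1323 in normoxia, which overlap. Of the 14 tested, 13 leaned towards hypoxia (median log2 difference 0.40), and none passed the edgeR test (2 higher and 1 lower at an unadjusted p under 0.05, and 1 and 0 by DESeq2). FPKM, the deposited count scaled by transcript length and library total, is the scale of all levels below. Changes are log2 values from edgeR on the counts with TMM scaling, which centres the libraries on the bulk of genes. With library totals in place of TMM the median change of all 15312 tested genes moved to -0.20, against -0.04. The split of called genes was then 364 higher and 812 lower, against 825 higher and 636 lower. A gene was tested if it reached 1 FPKM in at least 3 of the 6 libraries, and all 5 genes of the set did. A gene outside the set is said to have risen or fallen where the edgeR quasi-likelihood test gave an adjusted p under 0.05. The 14 alternatives named below used another tool, scaling or filter, a correction for gene length, the replicate number as a term (a block), or 5 of the 6 libraries.

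The secreted inhibitor gene angptl4 was at 44.8, 54.3 and 59.3 FPKM in hypoxia replicates 1, 2 and 3, against 14.9, 15.1 and 14.1 FPKM in normoxia replicates 1, 2 and 3. Every hypoxia library lay above every normoxia library, and the lowest hypoxia value was far from the highest normoxia value. The group means were 52.8 ± 7.36 FPKM in hypoxia and 14.7 ± 0.542 FPKM in normoxia (SD, n = 3 libraries each, as for all means below). With TMM scaling the levels were 110, 124 and 122 CPM, the count relative to the library total, in hypoxia and 30.9, 30.1 and 28.0 in normoxia, a log2 change of 2.0 ± 0.12 (SE) or 4.0-fold. Among the 15312 tested genes 73 had a larger rise. The gene lies on scaffold NW_020847781.1 from 92770 to 96850 on the minus strand, as the table gives it, and no annotated gene overlapped it. It is described as angiopoietin-related protein 4-like, after a protein of Ictalurus punctatus, which is a likeness and not an identity.

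The libraries of a group differed very little in angptl4. The pooled SD within groups was 0.08 on the log2 scale of TMM-scaled CPM, against a median of 0.25 over all tested genes. Only 3.59% of tested genes had a smaller one. A gene picked for groups that lie apart tends to have a small spread, so this too is a description. The counts behind it were large, 4237 to 6858 in hypoxia and 1478 to 1734 in normoxia.

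The fat-storage receptor gene pparg was at 9.47, 8.33 and 9.98 FPKM in hypoxia replicates 1, 2 and 3, against 20.1, 26.8 and 16.8 FPKM in normoxia replicates 1, 2 and 3. All hypoxia libraries lay below all normoxia libraries, and the normoxia libraries were the more scattered. The means were 9.26 ± 0.841 FPKM in hypoxia and 21.2 ± 5.10 FPKM in normoxia. TMM-scaled levels were 35.2, 28.8 and 31.2 CPM in hypoxia and 63.4, 81.0 and 50.6 in normoxia. The log2 change was -1.03 ± 0.19, a level 2.05-fold lower in hypoxia, and 893 of the tested genes had a larger fall. Its spread within groups, 0.26 on the log2 scale, was close to the median of all genes. The row lies on scaffold NW_020848309.1 from 1387256 to 1421737 on the minus strand. In bulk gill RNA, fewer cells of a type and less RNA per cell cannot be told apart.

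**Figure D1:**
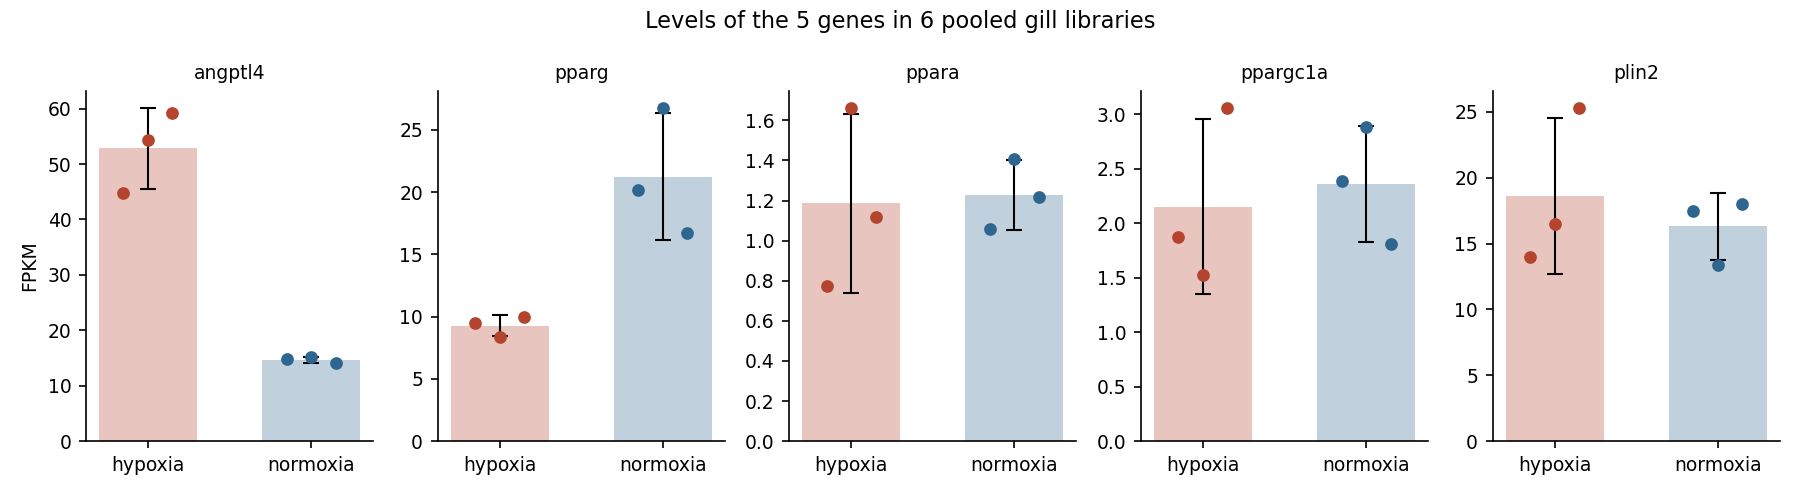
FPKM of angptl4, pparg, ppara, ppargc1a and plin2 in 3 hypoxia and 3 normoxia libraries, with points for single libraries, bars for group means and error bars for the SD. The groups are apart for angptl4 (44.8 to 59.3 against 14.1 to 15.1 FPKM) and pparg (8.33 to 9.98 against 16.8 to 26.8 FPKM), and they overlap for the other 3 genes.

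The droplet coat gene plin2 was at 14.0, 16.5 and 25.3 FPKM in hypoxia and 17.5, 13.4 and 18.03 FPKM in normoxia. The groups overlapped, with hypoxia replicate 3 above all other libraries. The means were 18.6 ± 5.95 FPKM in hypoxia and 16.3 ± 2.54 FPKM in normoxia, with a log2 difference of 0.33 ± 0.21. Without hypoxia replicate 3 that difference was 0.12.

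The oxidation receptor gene ppara was the lowest of the set, at 0.775, 1.66 and 1.12 FPKM in hypoxia and 1.06, 1.41 and 1.22 FPKM in normoxia. Its mean level exceeded that of 3.49% of tested genes. The hypoxia libraries spanned a wider range than the normoxia libraries and enclosed it. The log2 difference was 0.11 ± 0.30. It was -0.24 without hypoxia replicate 2 and -0.06 with library totals, so it has no settled sign.

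The coactivator gene ppargc1a was at 1.87, 1.53 and 3.06 FPKM in hypoxia and 2.38, 2.88 and 1.81 FPKM in normoxia. The groups overlapped, with the highest and the lowest library both in hypoxia. Its log2 difference was 0.01 ± 0.28. Leaving out single libraries moved it between -0.24 and 0.19, and with the replicate number as a term it was -0.01. It shares scaffold NW_020848008.1 with plin2, at 819341 to 854928 and 1356731 to 1360279, both on the minus strand and 501802 bases apart.

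Of the 5 genes, 2 had an adjusted p under 0.05 in the fit across all genes, 1 in each direction, where 9.54% of all tested genes did (5.39% higher and 4.15% lower). Likewise 2 of 5 had FPKM that did not overlap between the groups, against 37.3% of tested genes (11.4% with hypoxia above and 25.9% with hypoxia below). With 1 library left out pparg had such a p in 1 of 6 fits, without normoxia replicate 3, and over all 14 alternatives in 8. The set was chosen on this contrast, so nothing is read from these shares. For ppara and plin2 the nearest tested neighbours are mcm10, 753 bases from ppara, and haus6, 751 bases from plin2. Their log2 differences were 0.82 ± 0.30 and 0.41 ± 0.22 (edgeR adjusted p = 0.118 and adjusted p = 0.248).

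**Figure D2:**
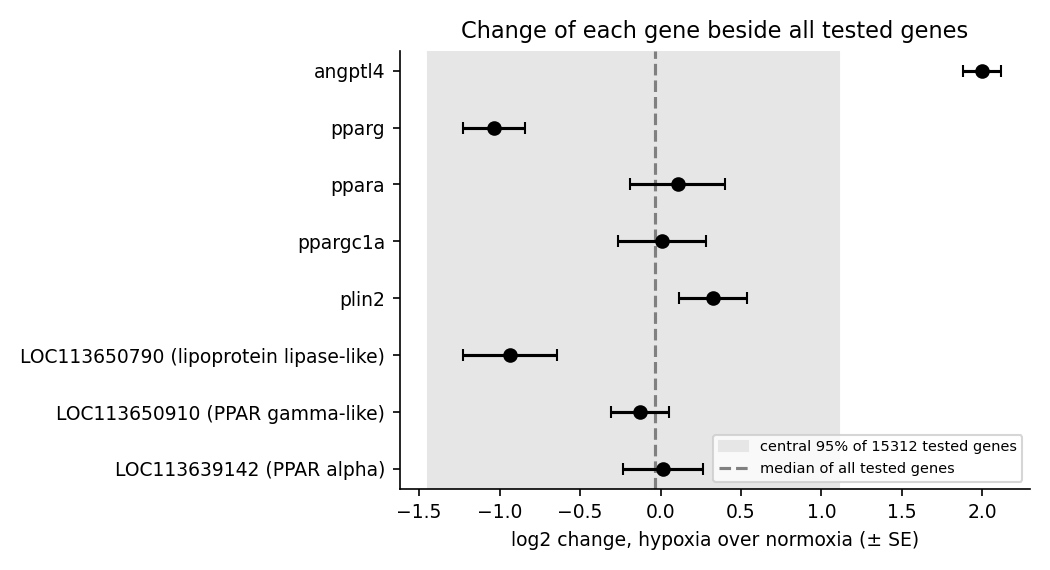
Log2 change, hypoxia over normoxia, with its SE for the 5 genes and 3 rows of like description, over a grey band for the central 95% of the 15312 tested genes (-1.44 to 1.11) and a dashed line for their median. The value of angptl4 (2.0) lies beyond the band, that of pparg (-1.03) inside its lower part, and those of ppara and ppargc1a near the median.

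The order of the levels differed between the groups. In all 3 hypoxia libraries the order from the highest was angptl4, plin2 and pparg, with ppargc1a and ppara below them. In normoxia pparg led in replicates 1 and 2 and plin2 in replicate 3. The normoxia FPKM of plin2 (13.4 to 18.03) overlapped those of pparg (16.8 to 26.8) and of angptl4 (14.1 to 15.1), so these neighbours did not differ beyond their spread, while angptl4 lay below pparg in each library. The levels of ppara and ppargc1a overlapped in hypoxia, but in normoxia each ppargc1a value lay above each ppara value. The ratio of angptl4 to pparg FPKM was 4.73, 6.52 and 5.94 in hypoxia and 0.738, 0.564 and 0.840 in normoxia. Both anchors were picked on this contrast, so the order and this ratio carry their differences and add nothing to them.

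A further 5 rows without a matching gene name were like a member by description alone. Such a description is a likeness to a protein recorded from a fish species and not an identity. The row LOC113650910, described as peroxisome proliferator-activated receptor gamma-like, was at 2.30, 2.58 and 3.09 FPKM in hypoxia and 2.95, 3.76 and 2.96 FPKM in normoxia. The groups overlapped, and its log2 difference was -0.13 ± 0.18 (edgeR quasi-likelihood adjusted p = 0.672). With the length correction it was 0.02. The row LOC113639142, described as peroxisome proliferator-activated receptor-alpha, was at 1.28, 0.943 and 1.73 FPKM in hypoxia and 1.38, 1.70 and 1.26 FPKM in normoxia, a log2 difference of 0.02 ± 0.25 (edgeR adjusted p = 0.973) with either sign under other settings. These receptors are close relatives, and the assignment of reads they share is not stated in the sources at hand.

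The receptor gene ppard, a family member expressed in many tissues, was at 5.08, 6.96 and 7.99 FPKM in hypoxia and 5.82, 7.88 and 7.35 FPKM in normoxia (log2 difference 0.08 ± 0.17, edgeR adjusted p = 0.795). Over the 6 rows described as such receptors, summed FPKM were 19.7, 20.9 and 26.6 in hypoxia and 31.8, 41.7 and 32.3 in normoxia. The named pparg row made up 48.0%, 39.8% and 37.6% of these sums in hypoxia and 63.3%, 64.2% and 51.8% in normoxia. Both measures contain pparg itself and so carry its difference. Without pparg the sums were 10.3, 12.6 and 16.6 FPKM in hypoxia and 11.7, 14.9 and 15.6 FPKM in normoxia, which overlap.

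Of 3 rows described as lipoprotein lipase-like, LOC113650790 carried nearly all of the counts. It was at 4.99, 3.88 and 2.70 FPKM in hypoxia replicates 1, 2 and 3, against 9.60, 8.21 and 7.35 FPKM in normoxia replicates 1, 2 and 3. All hypoxia libraries lay below all normoxia libraries. The means were 3.86 ± 1.14 FPKM in hypoxia and 8.39 ± 1.14 FPKM in normoxia, with a log2 difference of -0.94 ± 0.29 that did not pass the test (edgeR adjusted p = 0.0854). Over 14 alternatives the adjusted p ran from 0.0247 with DESeq2 to 0.188 without normoxia replicate 2, and 4 of them passed, all in the same direction.

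The row LOC113650790 lies on scaffold NW_020847763.1 from 13931030 to 13937981 on the minus strand. The like row LOC113650786 lies 4357 bases from it on the same strand, with counts of 6, 16 and 14 in hypoxia and 25, 0 and 10 in normoxia. The other like row, LOC113645101, had counts of 36, 8 and 0 in hypoxia and 0, 15 and 55 in normoxia, and neither passed the filter on low values. The ratio of angptl4 to LOC113650790 FPKM was 8.99, 14.0 and 22.0 in hypoxia and 1.55, 1.84 and 1.92 in normoxia. This ratio contains angptl4, which was picked on this contrast, and so carries its difference.

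**Figure D3:**
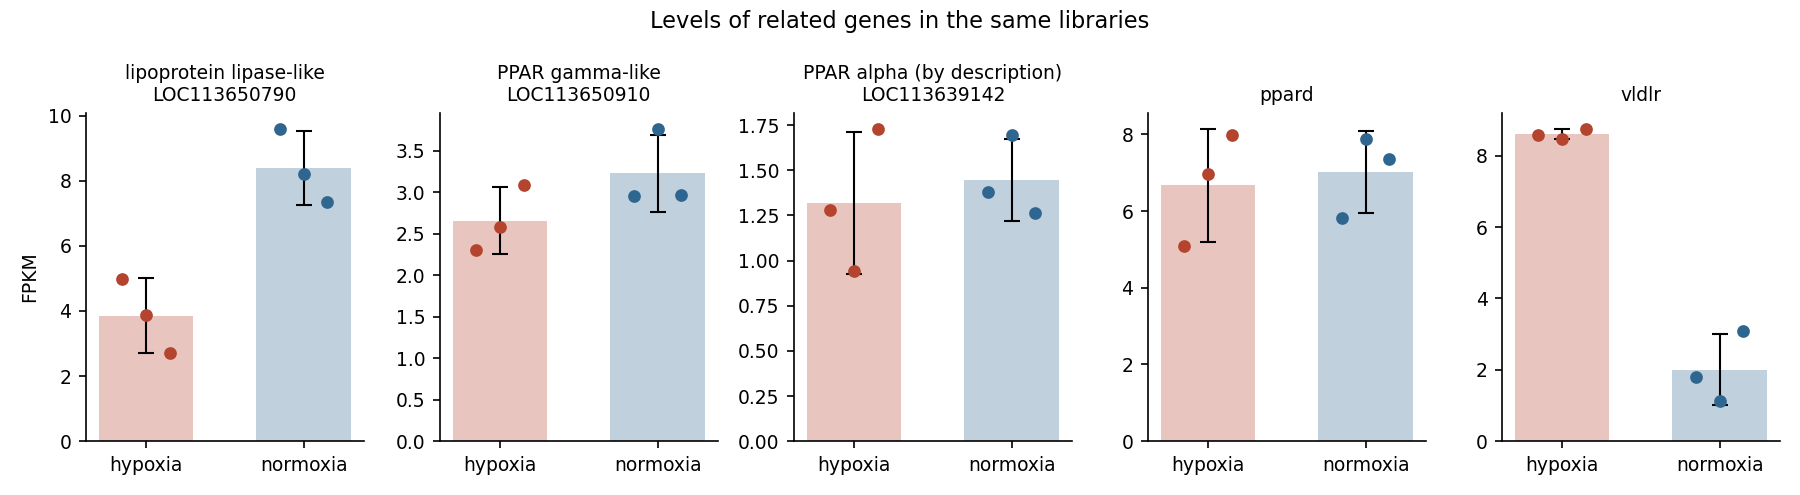
FPKM of the lipoprotein lipase-like, receptor gamma-like and receptor alpha rows, ppard and vldlr in 3 hypoxia and 3 normoxia libraries, with points for single libraries, bars for group means and error bars for the SD. The lipase-like row (2.70 to 4.99 against 7.35 to 9.60 FPKM) and vldlr (8.47 to 8.76 against 1.14 to 3.08 FPKM) do not overlap between the groups, and the 3 receptor rows do.

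Markers of other cells that use these genes were read beside them. Of 4 adipocyte marker rows found, the adiponectin-like row LOC113647152 had a count of 0 in all 6 libraries. The leptin row LOC113652398 and the fat-cell droplet gene cidec had counts of 203 and 19 in normoxia replicate 3 and 0 in the other 5 libraries. The hormone-sensitive lipase gene lipe was at 0.424 to 0.535 FPKM in hypoxia and 0.770 to 1.31 FPKM in normoxia. Summed over the 4 rows, adipocyte markers were at 0.424 to 0.535 FPKM in hypoxia and 1.06 to 4.31 FPKM in normoxia. These sums were lower in hypoxia without overlap, and below the level of pparg in every library. None of the 4 rows passed the filter on low values. The part of fat cells in the level of pparg was not tested.

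Macrophages are another known site of pparg expression. The macrophage list matched 150 rows, of which 141 are described as mannose receptor 1. Their summed FPKM were 778 to 951 in hypoxia and 979 to 1085 in normoxia, which do not overlap, and 43 rows had a count of 0 in all libraries. These sums rest on library totals without TMM scaling. On that scale 25.9% of all tested genes had hypoxia below without overlap and 11.4% had hypoxia above. The TMM factors were 0.867, 0.932 and 1.03 in hypoxia and 1.03, 1.08 and 1.08 in normoxia. Whether the gap between the sums holds with TMM scaling was not tested. Of 37 tested rows 4 fell and none rose by edgeR, or 10.8%, beside 9.54% of all tested genes (5.39% higher and 4.15% lower). At an unadjusted edgeR p under 0.05, 2 were higher and 16 lower. DESeq2 called 1 higher and 13 lower, where it called 11.7% of all tested genes higher and 10.1% lower. The median log2 change of the tested rows was -0.92, beside -0.04 for all genes. The macrophage-expressed gene 1-like row LOC113656273 fell to 12.9 ± 1.17 FPKM in hypoxia, against 27.3 ± 2.37 FPKM in normoxia (log2 change -0.92 ± 0.12, edgeR adjusted p = 0.0132). Its adjusted p was 0.0510 without normoxia replicate 3. The myeloid transcription factor gene spi1 fell by 0.59 on the log2 scale, and 2 mannose receptor rows fell, LOC113637191 and LOC113648995, all 4 being named after their values were seen. The calls of spi1 and LOC113637191 held in 0 of the 6 fits with 1 library left out, and that of LOC113648995 only without hypoxia replicate 3. The other symbol-named markers of the list went in no common direction and did not pass the test. Log2 differences were 1.22 ± 0.50 for the scavenger receptor gene marco (edgeR adjusted p = 0.155), 0.00 ± 0.36 for the mannose receptor gene mrc1 (adjusted p = 0.995), -0.09 ± 0.14 for the growth factor receptor gene csf1r (adjusted p = 0.699) and -0.13 ± 0.33 for the lysozyme gene lyz (adjusted p = 0.828). The part of such cells in the level of pparg was not tested.

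On the vessel wall lipoprotein lipase is bound by endothelial cells. Of 9 tested endothelial marker genes 1 rose and 1 fell, or 22.2%, beside 9.54% of all tested genes. At an unadjusted edgeR p under 0.05, 1 was higher and 1 lower, and DESeq2 called 1 higher and 1 lower. The median log2 change of the 9 was -0.11, with 3 of them above 0. The adhesion gene esam rose to 14.7 ± 1.64 FPKM in hypoxia, against 9.79 ± 0.809 FPKM in normoxia, and the platelet endothelial adhesion molecule-like row LOC113639665 fell to 2.40 ± 0.461 FPKM in hypoxia, against 4.58 ± 0.295 FPKM in normoxia (edgeR adjusted p = 0.0240 and adjusted p = 0.0435). The call of LOC113639665 held in 0 of the 6 fits with 1 library left out and that of esam only without normoxia replicate 1. The receptor gene tie1 was at 0.701, 2.55 and 2.10 FPKM in hypoxia and 3.66, 3.58 and 3.29 FPKM in normoxia, with no overlap. Its log2 difference was -0.84 ± 0.41 and did not pass (edgeR adjusted p = 0.217). Summed endothelial FPKM overlapped, at 98.6 to 162 in hypoxia and 114 to 164 in normoxia.

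The other genes of fat handling were taken from 7 lists of 198 rows, with the 5 genes left out. Of 128 tested, 11 rose and 3 fell, or 10.9%, beside 9.54% of all tested genes. At an unadjusted p under 0.05, 27 were higher and 12 lower, beside 2344 higher and 2299 lower of all 15312 tested genes. The median log2 change was 0.13, beside -0.04 for all genes. With library totals 7 rose and 5 fell. Of the 14 calls, 1 held in each of the 6 fits with 1 library left out and 7 held in none of them.

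Among genes of lipoprotein handling 2 of 16 tested rose and none fell by edgeR. That was 12.5%, beside 9.54% of all tested genes (5.39% higher and 4.15% lower). The median log2 change of this list was 0.35, beside -0.04 for all genes, with 11 of the 16 above 0. At an unadjusted edgeR p under 0.05, 5 were higher and 1 lower, and DESeq2 called 5 higher and 1 lower. DESeq2 called more of all tested genes, 21.8% in all, with 11.7% higher and 10.1% lower. The very low-density lipoprotein receptor gene vldlr, whose product takes up triacylglycerol-rich particles, rose to 8.60 ± 0.146 FPKM in hypoxia, against 2.0 ± 0.986 FPKM in normoxia. This was a log2 change of 2.26 ± 0.35 (edgeR adjusted p = 0.0198), and the groups did not overlap. The adjusted p was 0.0568 without hypoxia replicate 1 and 0.0600 without hypoxia replicate 2. The lipase maturation factor 2-like row LOC113645849 rose by 0.53 ± 0.12, a call that held in 0 of the 6 fits with 1 library left out. The rows named lmf2 and lmf1 had no call, with log2 differences of -0.25 ± 0.20 and 0.20 ± 0.18 (edgeR adjusted p = 0.422 and adjusted p = 0.506). The endothelial lipase gene lipg was at 13.5, 6.42 and 19.4 FPKM in hypoxia and 6.50, 2.52 and 4.30 FPKM in normoxia, which overlapped at a single pair of libraries (log2 difference 1.69 ± 0.47, edgeR adjusted p = 0.0652).

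Of 21 tested genes of droplets and triacylglycerol synthesis, 2 rose and 1 fell, or 14.3%, beside 9.54% of all tested genes. At an unadjusted edgeR p under 0.05, 2 were higher and 3 lower, and DESeq2 called 2 higher and 2 lower. The median log2 change of this list was -0.03. The 2 rows that rose by edgeR are described as the enzymes of the final step. The diacylglycerol O-acyltransferase 1-like row LOC113644625 rose to 16.4, 17.8 and 19.7 FPKM in hypoxia, against 10.1, 7.14 and 9.85 FPKM in normoxia (log2 change 1.15 ± 0.17, edgeR adjusted p = 0.0187). The diacylglycerol O-acyltransferase 2-like row LOC113641502 rose to 18.9 ± 2.79 FPKM in hypoxia, against 9.06 ± 1.31 FPKM in normoxia (log2 change 1.24 ± 0.21, edgeR adjusted p = 0.0240). The phosphatidate phosphatase gene lpin2, which acts a step earlier, fell to 4.92 ± 0.0645 FPKM in hypoxia, against 8.99 ± 1.38 FPKM in normoxia (edgeR adjusted p = 0.0385). Its call held in 0 of the 6 fits with 1 library left out. The LPIN2-like row LOC113642882 was at 6.65, 6.90 and 10.5 FPKM in hypoxia and 13.0, 12.8 and 12.1 FPKM in normoxia, with no overlap. Its log2 difference was -0.52 ± 0.15 and did not pass (edgeR adjusted p = 0.0774). Leaving out hypoxia replicate 1, hypoxia replicate 2 or the third normoxia library gave LOC113644625 an adjusted p of 0.0518, 0.0545 and 0.0553. LOC113641502 had 0.0555 and 0.0675 on leaving out hypoxia replicate 1 or 2, and 0.0782 and 0.0695 on leaving out normoxia replicate 2 or 3.

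Of 23 tested genes of fatty acid synthesis and elongation, 4 rose and 2 fell, or 26.1%, beside 9.54% of all tested genes. At an unadjusted edgeR p under 0.05, 6 were higher and 2 lower, and DESeq2 called 5 higher and 2 lower. The elongase 1-like row LOC113651676, described as an enzyme that lengthens very long chains, rose to 46.8 ± 10.4 FPKM in hypoxia, against 16.3 ± 1.06 FPKM in normoxia (log2 change 1.68 ± 0.17, edgeR adjusted p = 0.00705). It was called in all 14 alternatives. The elongase 7-like row LOC113638455, the most abundant of those called, rose to 627 ± 105 FPKM in hypoxia, against 234 ± 32.0 FPKM in normoxia (log2 change 1.58 ± 0.21). Its adjusted p was 0.0633 without normoxia replicate 2 and 0.0553 without normoxia replicate 3. The rows named elovl7, elovl5 and elovl6 had no call. Their log2 differences were 0.05 ± 0.38, 0.18 ± 0.18 and 0.69 ± 0.30 (edgeR adjusted p = 0.944, adjusted p = 0.554 and adjusted p = 0.173). The row LOC113657822, also elongase 1-like, and the reductase gene tecr of the same elongation cycle rose by 0.93 ± 0.21 and 0.63 ± 0.12. The call of LOC113657822 held in 0 of the 6 fits with 1 library left out, and that of tecr only without hypoxia replicate 3. Rows with the same description can share reads, so their single values are uncertain.

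The genes that fell, acly and acacb, act around the cytosolic acetyl-CoA pool and were named after their values were seen. ATP-citrate synthase acly, which makes cytosolic acetyl-CoA, was at 3.29, 6.07 and 7.11 FPKM in hypoxia and 16.7, 11.0 and 12.7 FPKM in normoxia (log2 change -1.16 ± 0.27, edgeR adjusted p = 0.0454). Acetyl-CoA carboxylase 2, acacb, whose product in mammals chiefly restrains fatty acid entry into mitochondria, fell by 0.84 on the log2 scale (SE 0.20, edgeR adjusted p = 0.0454). The synthase gene fasn had no call, with a log2 difference of 0.51 ± 0.21 (edgeR adjusted p = 0.161). The genes acaca and acss2 of the same list had none either. Their log2 differences were 0.07 ± 0.19 and 0.39 ± 0.13 (edgeR adjusted p = 0.831 and adjusted p = 0.0976). The calls of acly and acacb held in 0 of the 6 fits with 1 library left out.

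Of 21 tested fatty acid oxidation genes that mammalian PPAR alpha is known to control or that act with them, 2 rose and none fell. That was 9.52% of the list, beside 9.54% of all tested genes (5.39% higher and 4.15% lower). The median log2 change of the list was 0.30, beside -0.04 for all genes. Of the 21, 16 lay above 0, or 76.2%, beside 47.1% of all tested genes. At an unadjusted edgeR p under 0.05, 8 were higher and 1 lower, beside 2344 higher and 2299 lower of all 15312 tested genes. DESeq2 called 6 higher and 0 lower, where it called 11.7% of all tested genes higher and 10.1% lower. The 2 that rose by edgeR were the electron transfer flavoprotein genes etfb and etfa. They were at 62.4 ± 5.20 and 71.7 ± 3.51 FPKM in hypoxia, against 39.9 ± 3.97 and 50.7 ± 5.35 FPKM in normoxia. The call of etfa held in 0 of the 6 fits with 1 library left out. The etfb call ended when replicate 1 or 2 of hypoxia, or 2 or 3 of normoxia, was left out, with adjusted p from 0.0597 to 0.0801. The carnitine carrier gene slc25a20 and the thiolase subunit gene hadhb had log2 differences of 0.55 ± 0.14 and 0.48 ± 0.13 (edgeR adjusted p = 0.0544 and adjusted p = 0.0650).

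Of 18 tested genes of fatty acid uptake, binding and activation 1 rose and none fell by edgeR. That was 5.56%, beside 9.54% of all tested genes (5.39% higher and 4.15% lower). At an unadjusted edgeR p under 0.05, 3 were higher and 1 lower, and DESeq2 called 3 higher and 1 lower. The row that rose by edgeR was the long-chain-fatty-acid-CoA ligase 6-like LOC113646470, described as an enzyme that activates fatty acids. Its log2 change was 0.58 ± 0.12, and its call held in 0 of the 6 fits with 1 library left out. The ligase gene acsl4 was at 6.40 ± 1.09 FPKM in hypoxia and 11.3 ± 1.73 FPKM in normoxia, with no overlap (log2 difference -0.67 ± 0.18, edgeR adjusted p = 0.0599). The fatty acid transporter gene slc27a4 and the acyl-CoA-binding gene dbi had log2 differences of 0.58 ± 0.18 and 0.61 ± 0.20.

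No gene passed the edgeR test among 23 transcriptional regulators, beside 9.54% of all tested genes, and with so few genes little can be read from that. At an unadjusted edgeR p under 0.05, 3 were higher and 4 lower, and DESeq2 called 2 higher and 1 lower. The coactivator gene ncoa3 was at 0.538 ± 0.0613 FPKM in hypoxia and 1.33 ± 0.246 FPKM in normoxia (log2 difference -1.13 ± 0.28, edgeR adjusted p = 0.0512). The adipogenic factor gene cebpa was at 30.0 ± 5.86 FPKM in hypoxia and 21.8 ± 1.75 FPKM in normoxia (log2 difference 0.63 ± 0.19, edgeR adjusted p = 0.0800). The related row LOC113655797, described as beta-like, had a difference of 0.84 ± 0.30 and ncoa2 one of -0.45 ± 0.17.

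None of 6 tested lipolysis genes passed the edgeR test either, beside 9.54% of all tested genes, and a list of 6 is too small to read anything from that. At an unadjusted edgeR p under 0.05, 0 were higher and 0 lower, and DESeq2 called 0 and 0. The main droplet lipase gene pnpla2 was at 2.15 ± 0.332 FPKM in hypoxia and 1.80 ± 0.306 FPKM in normoxia. The hormone-sensitive lipase row LOC113641262 had a log2 difference of -0.40 ± 0.17, and the lipase cofactor gene abhd5 and the lysosomal acid lipase row LOC113637170 had differences of 0.15 ± 0.24 and 0.12 ± 0.16, which turn below 0 with library totals.

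**Figure D4:**
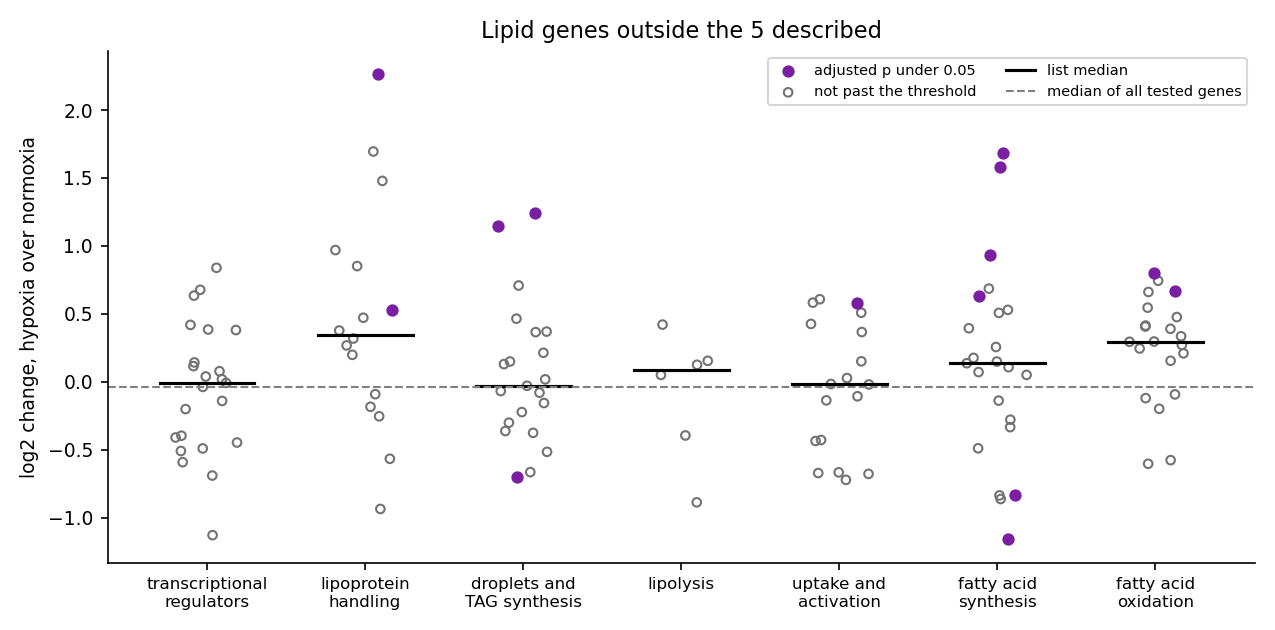
Log2 change, hypoxia over normoxia, of each tested gene in 7 lists of fat handling outside the set, with filled points for genes of adjusted p under 0.05, black lines for list medians and a dashed line for the median of all tested genes (-0.04). Fatty acid synthesis has 4 filled points above 0 and 2 below, and no regulator or lipolysis gene is filled in this edgeR fit.

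The genes nearest in pattern to each anchor were ranked among 7607 tested genes with a symbol. The measure was the root mean square difference over the 6 libraries in log2 TMM-scaled CPM, each gene centred on its own mean. Nearest to angptl4 were the deacetylase gene hdac4 at 0.08, the hypoxia-inducible factor hydroxylase gene hif1an at 0.09 and the phosphomannomutase gene pmm1 at 0.14. The mitochondrial folate enzyme gene mthfd1l at 0.19 and the lactate exporter gene slc16a3 at 0.24 came next. Their log2 changes were 1.95 to 2.18, beside 2.0 for angptl4. The first 2 stood at 24.1 and 41.5 FPKM in hypoxia and 6.33 and 11.4 FPKM in normoxia.

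Nearest to pparg were the iron exporter gene slc40a1 at 0.09, ttc39a at 0.10, the histone methyltransferase gene ezh1 at 0.11, the ammonium transporter gene rhag at 0.11 and the retinol-binding protein gene rbp4 at 0.14. Their log2 differences were -1.32 to -0.89, beside -1.03 for pparg. That of ezh1, the largest, did not pass the test (edgeR adjusted p = 0.0565). The calls of slc40a1, ttc39a and rhag held in 0 of the 6 fits with 1 library left out, and that of rbp4 in 2. The most abundant, rbp4, averaged 219.6 FPKM in hypoxia and 509 FPKM in normoxia. With 2 groups in 6 libraries, a gene of like change between the groups ranks high on this measure.

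**Figure D5:**
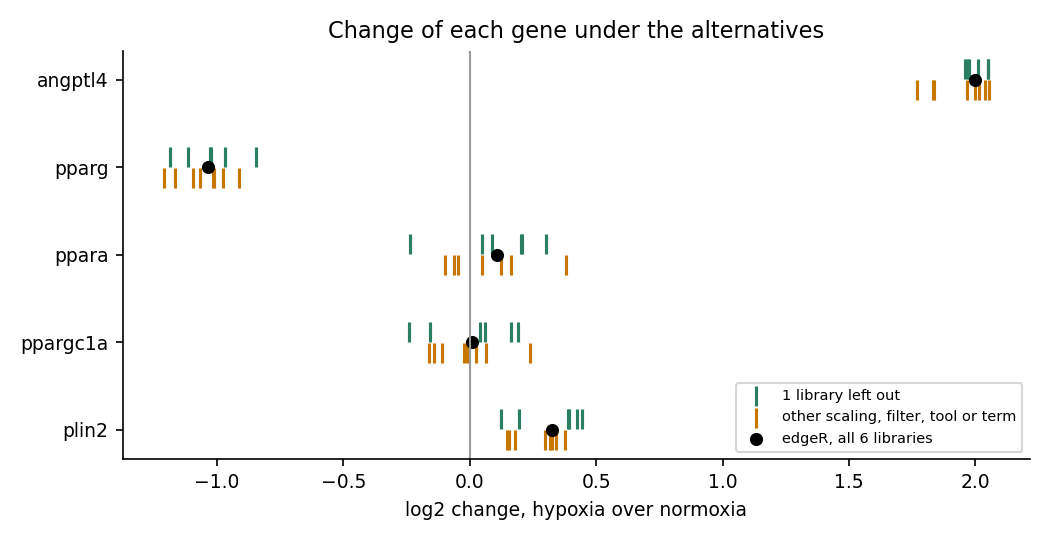
Log2 change, hypoxia over normoxia, of the 5 genes in edgeR with all 6 libraries (dots), with 1 library left out (upper ticks) and with another scaling, filter, tool or term (lower ticks). The values of angptl4 (1.77 to 2.05), pparg (-1.21 to -0.85) and plin2 (0.12 to 0.44) keep their sign, and those of ppara and ppargc1a lie on both sides of 0.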

How the data were processed

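Messenger RNA of pooled gill samples was sequenced, and the authors deposited gene counts beside FPKM values in a single table, per the file headers. Trimming and alignment tools named by the submitters' processing notes are cutadapt 1.9 and HISAT. For the counter, FPKM program, strand setting, genome build and annotation no source used here gives a name. The authors' counts are whole numbers whose totals differ between libraries, and the deposited FPKM stands at 0.0001 wherever the count is 0. At these totals the spread between pools limits precision more than counting: the common biological coefficient of variation was 0.329, and no 2 libraries of a group agreed within counting noise (chi-square per gene 137 or more).

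Hypoxia was compared with normoxia by the quasi-likelihood test of edgeR 4.0.16 in R 4.3.3, two-sided, on counts with TMM scaling, with Benjamini-Hochberg adjustment over 15312 genes of at least 1 FPKM in at least 3 libraries. Calls have an adjusted p under 0.05. Each SE of a log2 change was derived as the absolute change over the square root of the quasi-likelihood F value. Alternatives were DESeq2 1.42.0, limma 3.58.1 on log2(FPKM + 1) and log2(FPKM + 0.1), library totals, 2 other filters, a replicate block, a loess length correction (span 0.5) and each library left out. The genes, lists and rules were chosen with earlier results of these data known. Named genes are the 5 members, rows described like them, 4 per list by smallest p and the 5 nearest in pattern to each anchor. Any other gene named, such as fasn, ppard, angptl7 or a marker, was chosen after its values were seen. The marker list of hepatocytes summed to 0.83 FPKM or less in hypoxia and 0.99 or less in normoxia. The erythrocyte, skeletal muscle and gill epithelium lists overlapped between the groups in summed FPKM. The skeletal muscle sums differed widely within each group. They were 341, 59.7 and 7.57 FPKM in hypoxia replicates 1, 2 and 3 and 2.89, 142 and 329 FPKM in normoxia replicates 1, 2 and 3. The part of muscle in the levels given above was not tested. No sequences are printed, since the files used here hold none.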

Additional observations from a re-analysis of the deposited data

How the results depend on the processing

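Both anchors were chosen on this contrast and these libraries, so their counts of passes are a description and nothing is read from them. The change of angptl4 was past the threshold in 14 of 14 alternatives and that of pparg in 8, of which 1 was a fit with 1 library left out (without normoxia replicate 3). Their log2 changes moved to 1.83 (library totals), 1.83 (limma, pseudocount 0.1) and 1.77 (limma, pseudocount 1) for angptl4, and by less than the spread between replicates for pparg. Leaving out 1 library gave 1.96 to 2.05 for angptl4 and -1.19 to -0.85 for pparg.

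Counts of calls depended on the libraries and the tool. With 1 library left out 68 to 490 genes were higher and 64 to 422 lower, and 2 to 9 list genes were higher and 0 lower. DESeq2 called 1792 higher and 1540 lower, with 23 and 7 in the lists. Library totals gave 364 higher, with 7 and 5 in the lists, limma 436 (pseudocount 0.1) and 479 (pseudocount 1) higher, each with 7 and 5 in the lists. No filter gave 541 higher and 321 lower, with 0 list genes lower, and the length correction 343 lower with 0 list genes lower. The replicate block gave 122 higher and 120 lower, with 2 and 0 in the lists. The deviations of same-numbered libraries had correlations of -0.08, 0.05 and -0.09, and no hypoxia library correlated best with its own number. The deviations are from means of 3 libraries per group, so this cannot show whether same-numbered libraries share more than a number. The cause of these shifts was not tested.

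Besides ppara and ppargc1a, 4 genes without a call changed sign among the named genes that were followed over the alternatives. Some named genes without a call, such as ppard, mrc1, elovl7 and acaca, were not followed in this way. LOC113650910 was 0.016 with the length correction. LOC113637170 was -0.049 with library totals, and -0.036 and -0.035 with limma at pseudocounts 0.1 and 1. For abhd5 the values were -0.0082, -0.027 and -0.016 in those fits, and -0.027 to 0.33 with 1 library left out, the lowest without hypoxia replicate 2. LOC113639142 was -0.14, -0.15 and -0.087 in those fits, -0.0034 with the replicate block and -0.14 to 0.20 with 1 library left out, the lowest without hypoxia replicate 3. The filter of 1 FPKM in all 6 libraries left ppara untested.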

Other observations

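The authors' deposited annotation places 163 further rows in the PPAR signalling pathway, a list taken up after the data were seen. Of 92 tested, 2 rose and 2 fell, or 4.35%, beside 9.54% of all tested genes. The row LOC113638407, described as mitochondrial uncoupling protein 2-like, fell to 10.9, 9.40 and 5.65 FPKM in hypoxia, against 85.1, 83.9 and 60.6 FPKM in normoxia. This was a log2 change of -2.96 ± 0.33 (edgeR adjusted p = 0.00930). It kept its call in every fit with 1 library left out. The row named ucp2, in the oxidation list, had no call, with a log2 difference of -0.12 ± 0.31 (edgeR adjusted p = 0.825). The mitochondrial phosphate carrier gene slc25a3 rose to 323 ± 41.7 FPKM in hypoxia, against 178 ± 30.4 FPKM in normoxia. Its adjusted p was 0.0839 and 0.0954 on leaving out hypoxia replicate 1 or 2, and 0.119 and 0.107 on leaving out normoxia replicate 2 or 3. The kinase row LOC113661748, described as 3-phosphoinositide-dependent protein kinase 1-like, fell by 0.76 on the log2 scale and among the fits with 1 library left out kept its call only without normoxia replicate 1. The ligase row LOC113646470 was the other rise.

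The angiopoietin-like family gene angptl7, named after its values were seen, was at 16.3 ± 3.98 FPKM in hypoxia and 13.0 ± 4.39 FPKM in normoxia (log2 difference 0.49 ± 0.28, edgeR adjusted p = 0.291).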
